A study of Mus musculus with 24 samples.

Results

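Teneurin genes were followed as a group of 3, Tenm2, Tenm3 and Tenm4, out of 22208 protein-coding genes of a mouse mm9 annotation in which they carry the older symbols Odz2, Odz3 and Odz4. They were chosen by name and with earlier results of these libraries known, so the shares of each gene inside called regions are given as a description, without a test. Chromatin immunoprecipitation and sequencing (ChIP-seq) had been performed on untreated, immortalized murine dermal fibroblasts, a cultured cell line from the dermis, of genotype Lap2alpha -/- (KO) or Lap2alpha +/+ (WT), to ask where lamins and LAP2alpha contact chromatin and whether lamin A/C contacts change without LAP2alpha. Chromatin was sonicated for 30 or 12 cycles, and the antibodies were 8C10-1H11 against LAP2alpha, a nucleoplasmic isoform of the Tmpo gene, N18 and 3A6 (3A6-4C11) against the N terminus and the C-terminal Ig fold of lamin A/C, and an antibody against lamin B1. The 12 libraries with region lists were 4 of KO cells (N18 and 3A6, each at 30 and 12 cycles) and 8 of WT cells (the same 4 conditions, and LAP2alpha and lamin B1 at both sonications), with 1 library per condition, so no value carries a replicate error. KO cells lack LAP2alpha in culture from the start, each genotype is known here only as a fibroblast line, and the deletion and the fibroblast identity could not be checked from lists of regions.

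EDD (enriched domain detector) had called broad domains in bins of 11 kb, and SICER had called short islands in windows of 1000 bp. The 12 libraries held 194 to 370 EDD domains over 9.04% to 36.2% of the genome and 4183 to 9159 SICER islands with 3989494 to 13601739 reads in islands. Libraries differed along the chromosomes of the 3 genes. LAP2alpha WT at 30 cycles had 0 domains on chromosome 8, where Tenm3 lies, and islands over 3.68% of it, while the highest share among the libraries was 45.9%. Chromosome 7, where Tenm4 lies, held 1 to 5 islands in every library over at most 0.0702% of its length, but 17 to 37 domains. KO and WT libraries of the same antibody and sonication had been sequenced on the same flow cell and lane, as had both lamin B1 libraries, whereas the 30- and 12-cycle libraries of LAP2alpha, N18 and 3A6 came from different flow cells, and for those antibodies flow cell and cycle number cannot be told apart.

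Teneurins are large transmembrane proteins whose extracellular part is built of repeats and a barrel-like fold, and they act as cell adhesion molecules that match neurons to their partners during the wiring of the brain. They bind latrophilins, adhesion G protein-coupled receptors encoded by the Adgrl genes, which also bind FLRT proteins, and these in turn bind the netrin receptors of the Unc5 family. The family was first described in Drosophila as Ten-m and Odz, and the vertebrate genes are very long, with short exons spread over long introns. Lamins form the meshwork under the nuclear envelope, and long, neuronal genes that are silent in a cell type often lie in lamina-associated domains.

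All 3 genes belong to the longest in the annotation. Tenm2 lies at chr11:35820158-37049466 on the minus strand and spans 1229 kb with a GC content of 40.9%. Tenm3 lies at chr8:49313036-49760044 on the minus strand and spans 447 kb with 42.2% GC. Tenm4 lies at chr7:103319754-104059603 on the plus strand and spans 740 kb with 45.5% GC. In length they ranked 26, 256 and 96 among the 22208 genes, whose median was 15.5 kb. The exons are crowded at the 3′ end of each gene. Of 31 exons in the longest coding transcript of Tenm2, 27 lay in the 3′ part of the gene beyond its midpoint, as did 27 of 29 in Tenm3 and 29 of 33 in Tenm4. The largest introns were intron 4 of Tenm2 (479 kb), intron 2 of Tenm3 (229 kb) and intron 1 of Tenm4 (184 kb).

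The start of a gene is where a domain or an island could meet its promoter, so the 250 bases before the RefSeq starts of Tenm3 and Tenm4 are shown, from the GRCm38.p6 tables, after each had been found once in mm9. The start listed for Tenm2 lies 292 kb inside the gene, where exon 3 of its longest coding transcript begins, so that the bases before it are the end of an intron, and they are not shown. Capitals mark the letters CG, which read the same on both strands.
Tenm3, chr8:49760045-49760294, minus strand: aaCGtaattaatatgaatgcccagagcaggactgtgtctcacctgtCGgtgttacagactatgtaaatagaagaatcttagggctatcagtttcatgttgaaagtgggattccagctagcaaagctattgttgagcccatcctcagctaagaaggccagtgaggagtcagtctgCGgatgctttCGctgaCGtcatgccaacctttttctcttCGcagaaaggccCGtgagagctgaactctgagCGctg
Tenm4, chr7:103319504-103319753, plus strand: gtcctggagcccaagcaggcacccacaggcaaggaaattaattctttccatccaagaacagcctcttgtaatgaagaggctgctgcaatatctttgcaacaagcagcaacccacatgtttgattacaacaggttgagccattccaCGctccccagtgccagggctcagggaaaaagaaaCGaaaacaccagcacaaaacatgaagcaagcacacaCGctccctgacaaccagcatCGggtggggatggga
Tenm4, start inside the gene, chr7:103359931-103360180, plus strand: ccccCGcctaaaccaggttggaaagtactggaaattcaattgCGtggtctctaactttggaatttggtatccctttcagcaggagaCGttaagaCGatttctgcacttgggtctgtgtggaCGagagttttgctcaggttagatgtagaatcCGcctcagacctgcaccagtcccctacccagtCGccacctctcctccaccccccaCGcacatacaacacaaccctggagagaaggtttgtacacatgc
The window of Tenm3 held 8 CG with 47.6% GC. That of the outermost start of Tenm4 held 4 CG with 50.8% GC, and that of its other start, 40.4 kb inside the gene, held 8 CG with 51.6% GC. Over the windows before the outermost starts of 22203 genes the median was 8 CG and 54% GC, and 92.5% held at least 1 CG, so that Tenm3 and the inner start of Tenm4 were at the median in CG and the outermost start of Tenm4 was below it. Both Tenm4 windows were inside a domain in 4 libraries (LAP2alpha at both sonications and N18 WT and lamin B1 at 30 cycles). The Tenm3 window was in no domain, but met a SICER island in 6 libraries (LAP2alpha, N18 WT and 3A6 WT at 12 cycles, N18 WT at 30 cycles and lamin B1 at both sonications).

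**Figure D1:**
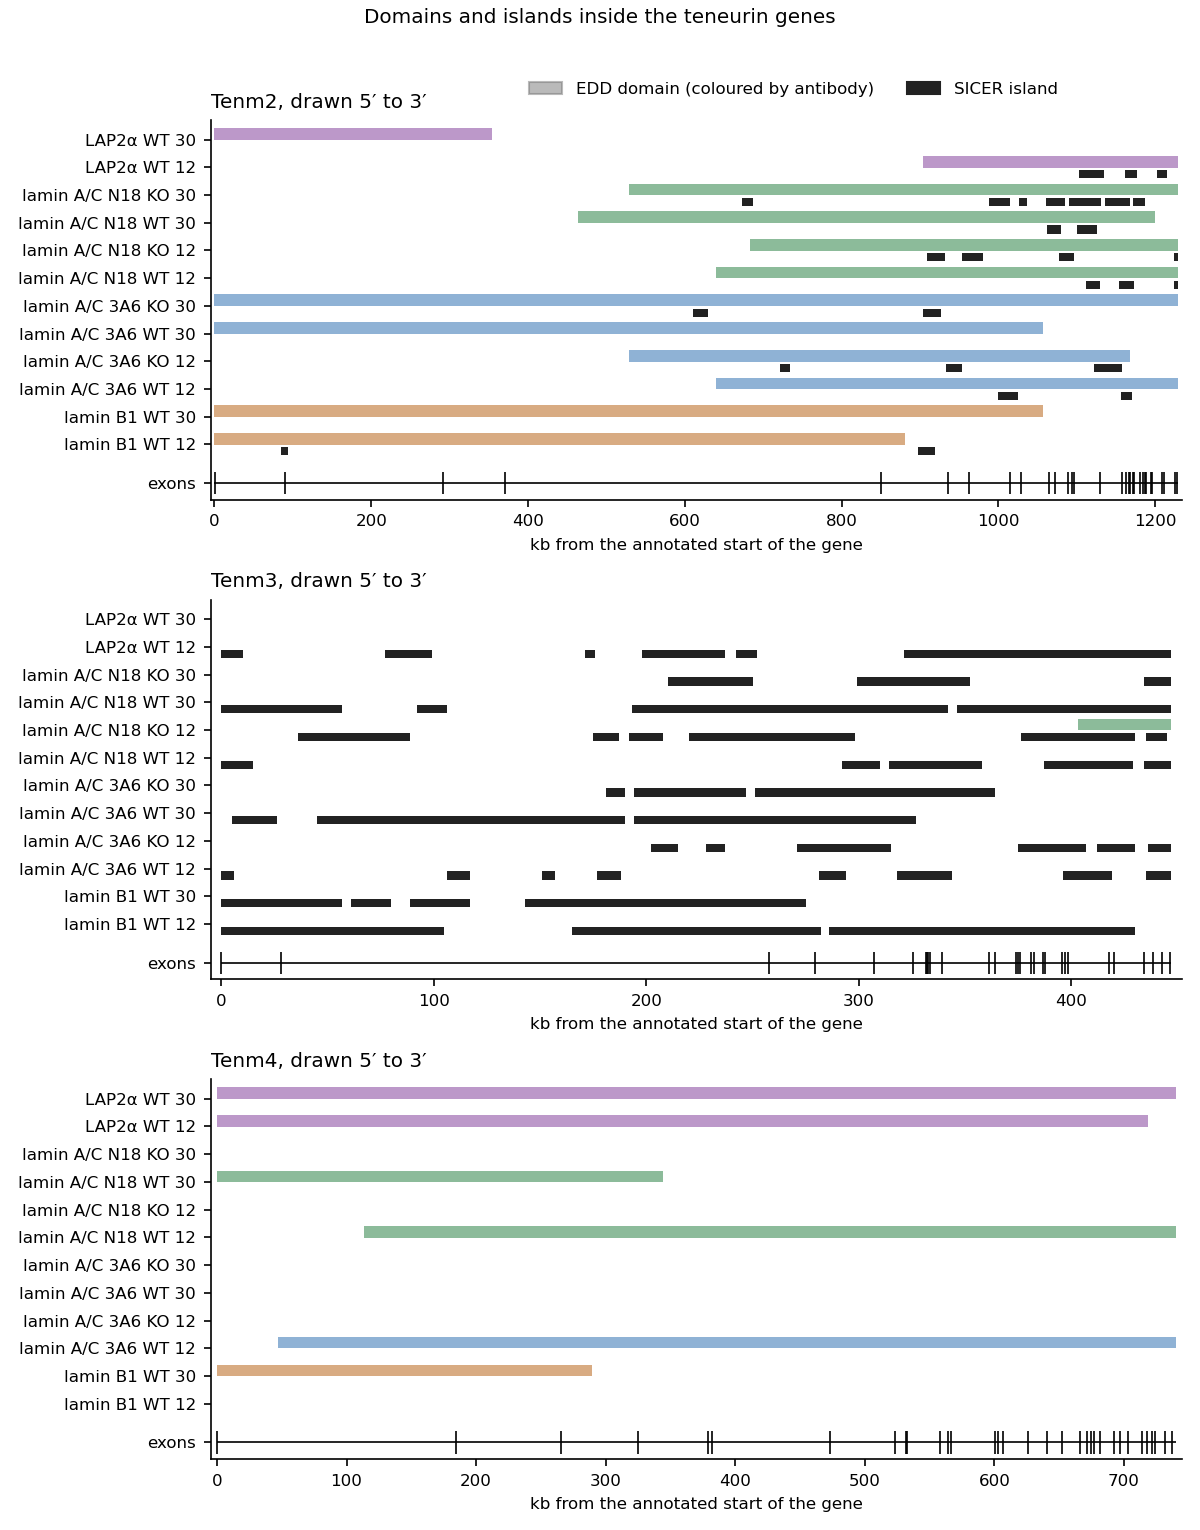
Map of Tenm2, Tenm3 and Tenm4, drawn 5′ to 3′ in kb from the annotated start, with the EDD domains (thick bars, coloured by antibody) and SICER islands (thin black bars) of the 12 libraries in rows and the exons of the longest coding transcript at the bottom. Domains end inside Tenm2 in 11 libraries, Tenm3 holds islands in 11 libraries and a domain in 1, and Tenm4 holds domains in 6 WT libraries, 3 of them of lamin A/C, and in none of the 4 KO libraries, all of lamin A/C.

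Tenm2 was the gene that every library reached. Some part of it lay inside an EDD domain in all 12 libraries, which held for 42 of the 22208 genes (0.189%) and for 11 of the 528 genes of at least 300 kb (2.08%). When only domains with a score above the library median were kept, Tenm2 was at 0% in LAP2alpha at both sonications, N18 WT at 30 cycles and 3A6 KO at 12 cycles, which left 8 of the 12 libraries. LAP2alpha domains held 28.8% of the gene at 30 cycles and 26.5% at 12 cycles. N18 domains held 56.9% in KO and 60.0% in WT at 30 cycles, and 44.4% in KO and 48.0% in WT at 12 cycles. With N18 the share was thus lower in KO by 3.02 points at 30 cycles and by 3.58 points at 12 cycles. Domains of 3A6 held 100% in KO and 86.0% in WT at 30 cycles, and 51.9% in KO and 48.0% in WT at 12 cycles. Lamin B1 domains held 86.0% at 30 cycles and 71.7% at 12 cycles. At least 50% of Tenm2 was inside domains in 7 libraries, which were both N18 and both 3A6 libraries at 30 cycles, 3A6 KO at 12 cycles and both lamin B1 libraries. The values just inside that limit were 51.9% (3A6 KO, 12 cycles) and 56.9% (N18 KO, 30 cycles), and those just outside were 48.0% (N18 and 3A6 WT, 12 cycles), a gap of 3.92 percentage points between 3A6 KO and 3A6 WT at 12 cycles.

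Which end of Tenm2 was held differed more between libraries than the share did. LAP2alpha held the 5′ end, from the start to 353 kb, at 30 cycles, and the 3′ end, from 903 kb onward, at 12 cycles, so that its domains at the 2 sonications shared 0 kb of the gene. At 12 cycles in WT cells N18 and 3A6 held the 3′ end from 639 kb, with the same edge at position 36410000 with both lamin A/C antibodies. Lamin B1 at 12 cycles held the 5′ end, up to 881 kb. LAP2alpha and lamin B1 domains at 12 cycles thus overlapped by 0 kb inside the gene, and N18 and lamin B1 shared 242 kb. The 12-cycle LAP2alpha domain lay wholly inside the 12-cycle lamin A/C domains of WT cells, which it shared over 326 kb, with 264 kb held by lamin A/C alone. The 30-cycle domain of LAP2alpha had an EDD score of 4.08, against a median of 8.43 over the domains of that library, and the 12-cycle domain had 9.09 against a median of 9.55.

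Because the exons lie at the 3′ end, the side that was held decided how many exons were inside. N18 in WT at 12 cycles held 48.0% of Tenm2, but 27 of its 31 exons and 92.6% of the exon bases. Lamin B1 at 30 cycles held 86.0% of the gene, but 9 exons and 17.7% of the exon bases. The same 2 values were found for 3A6 in WT at 30 cycles, whose domain ended at the same position as that of lamin B1 (35992001). LAP2alpha held 3 exons at 30 cycles and 26 at 12 cycles. The outermost start of Tenm2 was inside a domain in 5 libraries and its 3′ end in 6. Base composition changes along the gene in the same direction, from 38.5% GC in the stretch next to the start to 46.9% in the last 28.8 kb. The part held by N18 and 3A6 in WT at 12 cycles had 43.3% GC, and that held by lamin B1 at 12 cycles had 39.7%. The part of base composition in where the domains ended was not tested.

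Tenm2 held 13 domain edges over the 12 libraries, at 10 positions, and only 3A6 in KO at 30 cycles, whose domain took in the whole gene, had none. Of these edges 12 were in introns and 1 (3A6 KO, 12 cycles) was in exon 19. Intron 4, the largest, held 6 of them. Over the gene, 6 of the 13 edges were shared to the base pair by a pair of libraries, which EDD bins of 11 kb make possible. The shared positions were 36410000 (N18 WT and 3A6 WT at 12 cycles), 36520000 (N18 KO at 30 cycles and 3A6 KO at 12 cycles) and 35992001 (3A6 WT and lamin B1 WT at 30 cycles). In any 1 library 5.87% to 12.7% of the genes of at least 300 kb held an edge. Those genes had a median length of 439 kb, against 1229 kb for Tenm2, and a longer gene has more room for an edge. A stretch of 374 kb, 30.4% of the gene, was inside the domains of all 8 lamin A/C libraries, and 0 kb of Tenm2 was outside the domains of all 12 libraries.

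Short islands were few in Tenm2. Its SICER share was 13.4% in N18 KO at 30 cycles, the single library past 10%, and at most 6.01% in the other 11. It was 0% in LAP2alpha, 3A6 WT and lamin B1 at 30 cycles. Of its 28 islands, 27 lay wholly inside a domain of the same library, and the exception was an island of 22 kb of lamin B1 at 12 cycles, 3′ of the domain edge. No island met the outermost start of Tenm2.

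Tenm4 lay inside LAP2alpha domains at both sonications and inside no domain of KO cells. LAP2alpha domains held 100% of the gene at 30 cycles and 97.1% at 12 cycles. N18 domains held 0% in KO and 46.5% in WT at 30 cycles, and 0% in KO and 84.7% in WT at 12 cycles. Domains of 3A6 held 0% in KO and 0% in WT at 30 cycles, and 0% in KO and 93.6% in WT at 12 cycles. Lamin B1 domains held 39.1% at 30 cycles and 0% at 12 cycles. Among the lamin A/C libraries, Tenm4 was thus held by 0 of 4 of KO cells and by 3 of 4 of WT cells. The share of all genes with these counts was not computed, so nothing particular to Tenm4 is read from them. The other WT libraries that held Tenm4 were LAP2alpha and lamin B1, for which there was no KO library. The nearest domain to Tenm4 was 2475 kb away in N18 KO at 30 cycles, 10329 kb in N18 KO at 12 cycles, 6985 kb in 3A6 KO at 30 cycles and 9669 kb in 3A6 KO at 12 cycles. In 3A6 WT at 30 cycles, which also held none of the gene, it was 2494 kb away.

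A pattern set by the values of Tenm4 itself, with at least 80% inside the 12-cycle LAP2alpha, N18 and 3A6 domains of WT cells and 0% in all 4 KO libraries, was found for 274 of the 22208 genes (1.23%). The WT lamin A/C domains over Tenm4 scored below the median of their library, clearly for N18 at 12 cycles and narrowly for N18 at 30 cycles and 3A6 at 12 cycles. Their EDD scores were 5.53 for N18 at 30 cycles, 5.42 for N18 at 12 cycles and 8.24 for 3A6 at 12 cycles, against library medians of 5.72, 8.02 and 8.35. When only domains above the library median were kept, these 3 domains and that of lamin B1 dropped out, and with them every difference between KO and WT and between sonications of lamin A/C and lamin B1 at Tenm4. The LAP2alpha domains, with scores of 10.5 at 30 cycles and 11.7 at 12 cycles, were above their medians of 8.43 and 9.55 and stayed.

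Tenm4 held 5 domain edges at 5 positions, none within 11 kb of another. At 30 cycles the N18 domain of WT cells and the lamin B1 domain came in from the 5′ side and ended at 344 kb (intron 4) and 289 kb (intron 3). At 12 cycles the N18 and 3A6 domains of WT cells began inside intron 1, at 113 and 47.2 kb from the start, and ran past the 3′ end of the gene. N18 in WT therefore held 4 of 33 exons and 3.71% of the exon bases at 30 cycles, and 32 exons and 98.2% of the exon bases at 12 cycles. Of the 30- and 12-cycle N18 domains of WT cells, 231 kb was shared, 113 kb was held at 30 cycles alone and 396 kb at 12 cycles alone. Lamin B1 at 30 cycles held 3 exons and 2.99% of the exon bases. LAP2alpha shared 605 kb of the gene with N18 and 671 kb with 3A6 in WT at 12 cycles, with 113 and 47.2 kb held by LAP2alpha alone.

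SICER islands covered 0% of Tenm4 in all 12 libraries. The same was true of 9332 of the 22208 genes (42.0%), and of 2062 of the 2065 genes of chromosome 7 (99.9%), so that nothing particular to Tenm4 is read from its 0%.

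Tenm3 was the reverse case, with islands and almost no domain. EDD domains held 0% of it in 11 libraries and 9.84% in N18 KO at 12 cycles, where a domain from the 3′ side ended in intron 23, at 403 kb from the start. That domain took in 6 of 29 exons, 44.3% of the exon bases, and the whole of the 500 kb downstream of the gene. A share of at most 10% in all 12 libraries was found for 32.2% of all genes. The nearest domain was 202 kb away in lamin B1 at 30 cycles and 224 kb away in 3A6 WT at 30 cycles, both upstream of the start, and 561 to 22466 kb away in 8 others.

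Islands covered 0% of Tenm3 in LAP2alpha at 30 cycles, where the chromosome held few islands, and 47.4% at 12 cycles. N18 islands covered 23.7% in KO and 71.8% in WT at 30 cycles, and 49.9% in KO and 29.5% in WT at 12 cycles. The 2 sonications thus put KO on opposite sides of WT. Islands of 3A6 covered 39.1% in KO and 66.9% in WT at 30 cycles, and 28.4% in KO and 24.2% in WT at 12 cycles. Lamin B1 islands covered 52.8% at 30 cycles and 81.9% at 12 cycles, the highest of the 12 values. A pattern set by these values of Tenm3, with at least 20% in 11 libraries and 0% in LAP2alpha at 30 cycles, was found for 19 of the 22208 genes (0.0856%). On chromosome 8 it was found for 13 of 1076 genes (1.21%). Chromosome 8 as a whole was covered by islands over 27.1% (3A6 WT, 30 cycles) to 45.9% (3A6 KO, 30 cycles) in the 11 libraries with islands in Tenm3. Tenm3 was below its chromosome in N18 KO and 3A6 KO at 30 cycles and in N18 WT and 3A6 WT at 12 cycles. It was above its chromosome in the others of those 11. Nothing particular to Tenm3 is therefore read from its having islands.

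The reads in these islands were at the usual density for their library. Islands of Tenm3 held 0.938 to 1.06 times as many reads per kb as all islands of the same library, and those of Tenm2 held 0.796 to 0.931 times as many. The raw densities, 20.3 to 49.7 reads per kb in Tenm3, were not compared across libraries.

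**Figure D2:**
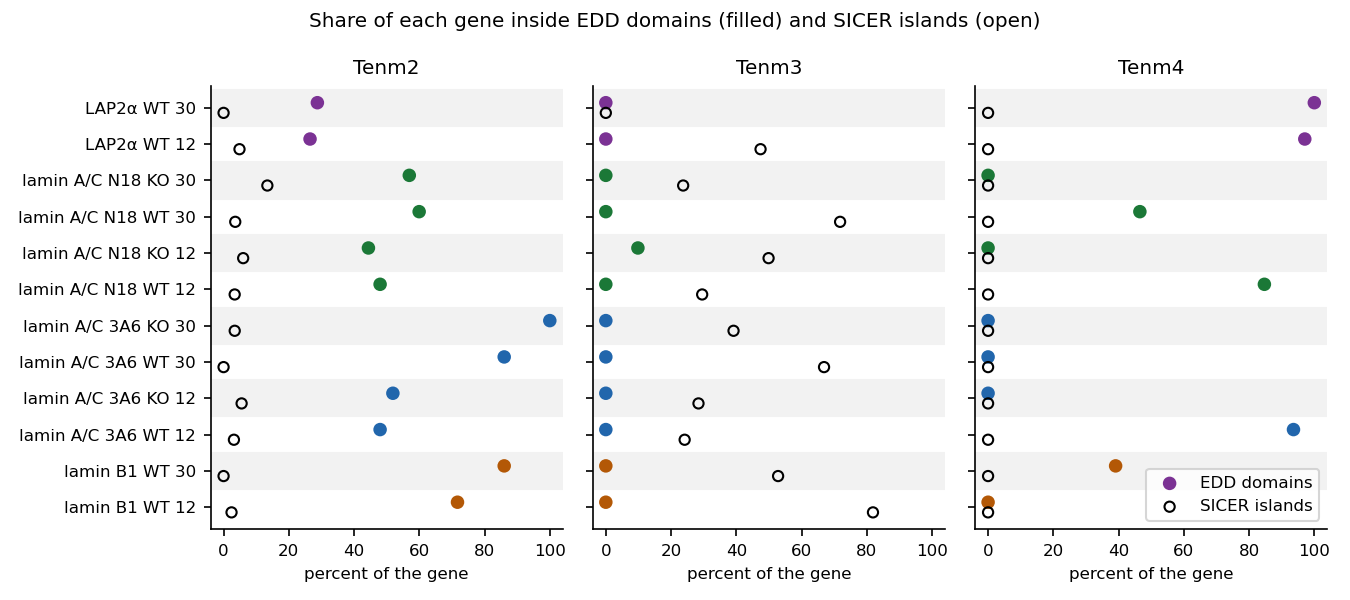
Percent of Tenm2, Tenm3 and Tenm4 inside EDD domains (filled points, coloured by antibody) and inside SICER islands (open points) in each of the 12 libraries, 1 point per library. Tenm2 runs from 26.5% to 100% in EDD domains, Tenm3 reaches 81.9% in islands with 9.84% at most in domains, and Tenm4 runs from 0% to 100% in domains with 0% in islands.

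Along Tenm3 the islands sat in different places in different libraries. Of its 446 whole 1-kb windows, every window was inside an island of at least 1 library, 225 (50.4%) of at least 6, 41 (9.19%) of at least 8, and 0 of 10 or more. The windows shared by at least 8 libraries lay in 6 runs between 202 and 327 kb from the start, 4 of them in the 3′ part of intron 2, 1 in intron 4 and 1 over exon 6. Their GC content, 41.7%, was next to that of the windows in under 6 libraries, 41.6%. When the gene was divided into 5 bins of equal length, the median over the 11 libraries with islands was 24.7% and 15.6% of windows in the 2 bins next to the start, against 80.9%, 58.9% and 61.4% in the 3 others.

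At the 5′ end of Tenm3 the order of KO and WT changed with antibody and sonication. In the first bin, islands covered 0% in N18 KO, 64.0% in N18 WT, 0% in 3A6 KO and 73.0% in 3A6 WT at 30 cycles. At 12 cycles they covered 59.6% in N18 KO, 16.9% in N18 WT, 0% in 3A6 KO and 6.74% in 3A6 WT. KO was therefore lower in 3 of these 4 pairs and higher in N18 at 12 cycles. Lamin B1 islands covered 85.4% of that bin at 30 cycles and 100% at 12 cycles. The start itself was inside an island in 0 of 4 lamin A/C libraries of KO cells and in 3 of 4 of WT cells, the exception being 3A6 at 30 cycles, where the first island began 5.04 kb after the start. A pattern set by the values of Tenm3 itself, with the start inside an island in at least 6 WT libraries and in no KO library, was found for 27 of the 22208 genes (0.122%). It counts LAP2alpha and lamin B1 libraries, for which there was no KO library, so it is no background for the lamin A/C libraries alone. The share of all genes with the lamin A/C counts of Tenm3 was not computed, so nothing about genotype is read from them. In any 1 library 3.94% to 16.5% of starts were inside an island.

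**Figure D3:**
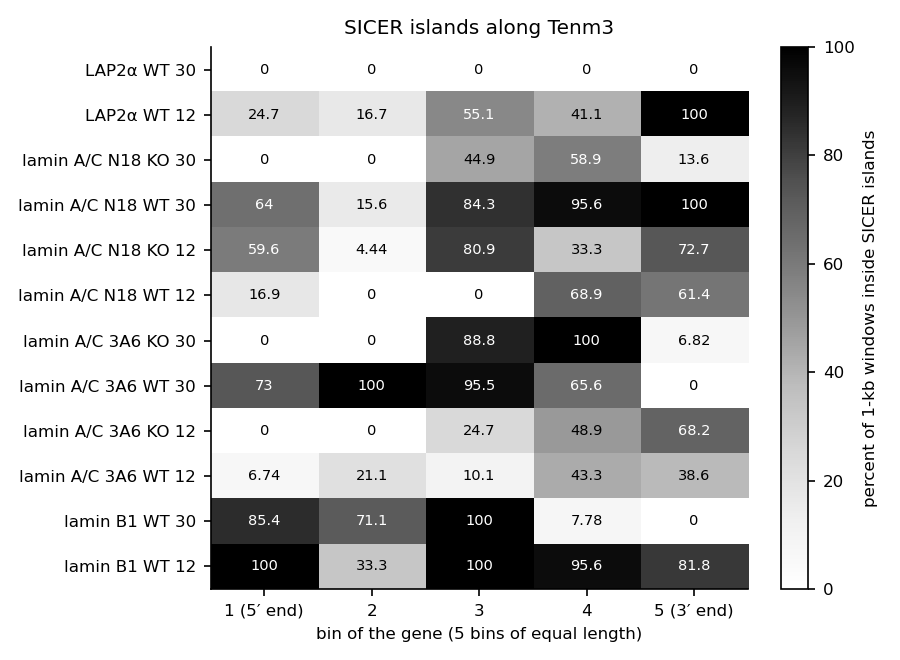
Percent of 1-kb windows inside SICER islands in 5 bins of equal length along Tenm3, from the 5′ end (bin 1) to the 3′ end (bin 5), for the 12 libraries in rows, with darker cells for higher shares. Bins 1 and 2 are at 0% in N18 KO at 30 cycles and in 3A6 KO at both sonications, bin 5 is at 0% in 3A6 WT and lamin B1 at 30 cycles, and all bins are at 0% in LAP2alpha at 30 cycles.

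Set beside all genes, 1 of the 3 teneurins was at least 50% inside domains in 11 libraries and 0 in N18 KO at 12 cycles. The share of all 22208 genes past the same limit was 32.3% for LAP2alpha at 30 cycles and 35.9% at 12 cycles, 28.5% for N18 KO and 5.89% for N18 WT at 30 cycles, and 23.1% for N18 KO and 27.4% for N18 WT at 12 cycles. It was 12.6% for 3A6 KO and 9.40% for 3A6 WT at 30 cycles, 10.7% for 3A6 KO and 21.1% for 3A6 WT at 12 cycles, and 16.8% for lamin B1 at 30 cycles and 7.78% at 12 cycles. Among the 528 genes of at least 300 kb it was 15.3% to 40.2%. For islands over at least 10% of the gene, 2 of 3 teneurins passed in N18 KO at 30 cycles, 0 in LAP2alpha at 30 cycles, and Tenm3 alone in the other 10 libraries. The share of all genes was 16.9% for LAP2alpha at 30 cycles and 25.3% at 12 cycles, 21.1% for N18 KO and 13.2% for N18 WT at 30 cycles, and 22.1% for N18 KO and 23.8% for N18 WT at 12 cycles. It was 7.74% for 3A6 KO and 7.44% for 3A6 WT at 30 cycles, 11.6% for 3A6 KO and 20% for 3A6 WT at 12 cycles, and 7.49% for lamin B1 at 30 cycles and 8.11% at 12 cycles. The median gene was at 0% in every library for domains and islands alike. With 3 genes, chosen with these results known, nothing about the family is read from the counts.

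KO was then set against WT within each antibody and sonication, counting a difference of over 10 percentage points of the gene. In EDD domains KO was lower in 3 of 12 gene and antibody pairs, all of them Tenm4, and higher in 1, Tenm2 with 3A6 at 30 cycles. Tenm4 fell by 46.5 points with N18 at 30 cycles, where 2.00% of all genes were lower by over 10 points. It fell by 84.7 points with N18 at 12 cycles, where 12.3% of all genes were lower, and by 93.6 points with 3A6 at 12 cycles, where 15.9% were lower. Tenm2 was 14.0 points higher with 3A6 at 30 cycles, as were 9.32% of all genes. These 14.0 points were 172 kb at the 3′ end, held in KO alone, which brought in the other 22 exons.

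Below that limit, edges of Tenm2 still moved. With N18 at 30 cycles 28.8 kb was held in KO alone, 671 kb in both and 66 kb in WT alone. With N18 at 12 cycles 0 kb was held in KO alone, 546 kb in both and 44 kb in WT alone. With 3A6 at 12 cycles 110 kb was held in KO alone, 528 kb in both and 61.8 kb in WT alone. The domain with 3A6 at 12 cycles therefore lay nearer the 5′ end in KO, with both of its edges inside the gene and 14 of 31 exons against 27 in WT. In these 3 comparisons the share of Tenm2 moved by at most 3.92 points. The order turned for 2 of them when only domains above the library median were kept, with 56.9% in KO and 0% in WT for N18 at 30 cycles and 0% in KO and 48.0% in WT for 3A6 at 12 cycles.

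In SICER islands, Tenm3 was the single gene with differences of over 10 points between KO and WT. It was lower in KO by 48.1 points with N18 at 30 cycles (with 8.04% of all genes) and by 27.7 points with 3A6 at 30 cycles (6.25%), and higher in KO by 20.4 points with N18 at 12 cycles (12.6%). The 3A6 difference at 12 cycles was 4.24 points. The Tenm2 shares were 2.36 to 9.84 points higher in KO, each difference below the limit. The share of all genes with that direction throughout was not computed, so no change of Tenm2 is read from it. Of the windows of Tenm3 in N18 KO islands at 30 cycles, 96.2% were also in N18 WT islands, which is 31.6% of the N18 WT windows. At 12 cycles the shared windows were 26.0% of those of N18 KO and 44.3% of those of N18 WT.

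**Figure D4:**
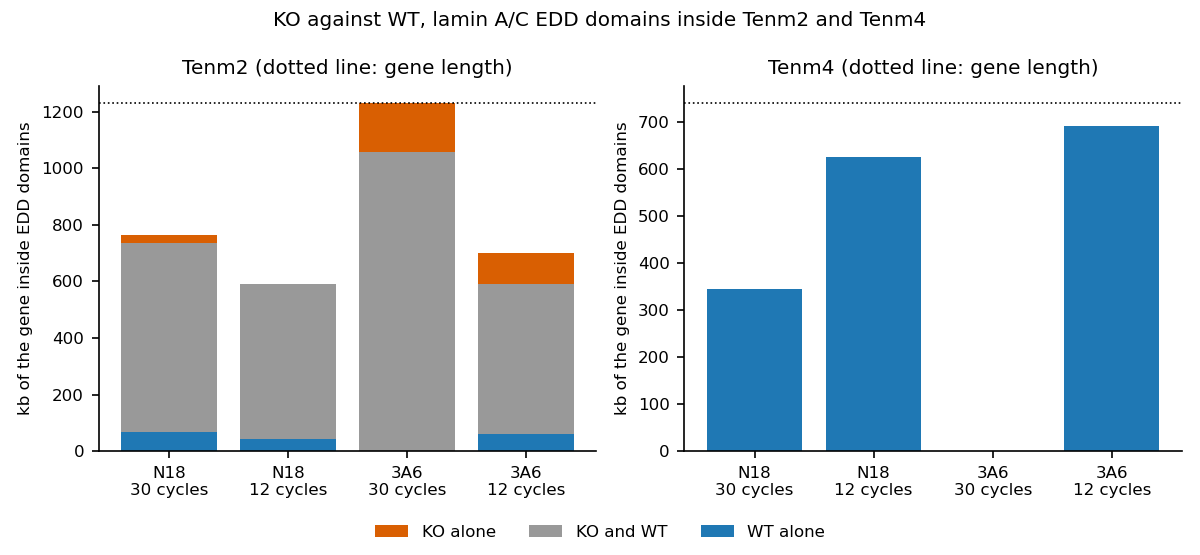
Kilobases of Tenm2 and Tenm4 inside lamin A/C EDD domains of KO alone, of KO and WT, and of WT alone, stacked from top to bottom for each antibody and sonication, with the gene length as a dotted line. For Tenm2 most of each bar is held in both genotypes, and for Tenm4 every bar is WT alone, with no bar for 3A6 at 30 cycles.

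Sonication was compared within each antibody and genotype. In EDD domains 6 of 18 pairs were higher at 30 cycles and 2 were lower. Tenm2 was higher at 30 cycles by 12.5 points in N18 KO (12.7% of all genes), by 12.0 points in N18 WT (2.97%; -48.0 points with domains above the library median), by 48.1 points in 3A6 KO (7.72%), by 38.0 points in 3A6 WT (8.67%) and by 14.3 points with lamin B1 (10.0%), and by 2.25 points with LAP2alpha. It was thus higher with every antibody, although the LAP2alpha stretches of the 2 sonications did not meet. Tenm4 was lower at 30 cycles by 38.2 points in N18 WT (24.8% of all genes) and by 93.6 points in 3A6 WT (20.6%), and higher by 39.1 points with lamin B1. In islands Tenm3 was lower at 30 cycles by 47.4 points with LAP2alpha (18.7%), by 26.2 points in N18 KO (12.0%) and by 29.1 points with lamin B1 (4.33%). It was higher by 42.3 points in N18 WT (8.09%), by 42.7 points in 3A6 WT (5.49%) and by 10.7 points in 3A6 KO (5.06%).

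The 2 lamin A/C antibodies gave the same Tenm2 domain edge in WT at 12 cycles and parted at 30 cycles. Tenm2 was lower with N18 than with 3A6 by 43.1 points in KO (5.57% of all genes) and by 26.1 points in WT (8.13%) at 30 cycles. In WT at 30 cycles N18 alone held 143 kb, both held 594 kb and 3A6 alone held 463 kb, with N18 on the 3′ side and 3A6 on the 5′ side. Tenm4 was higher with N18 by 46.5 points in WT at 30 cycles (4.67%) and lower by 8.92 points in WT at 12 cycles. In islands Tenm2 was higher with N18 by 10.0 points in KO at 30 cycles (17.7%), and Tenm3 was lower with N18 by 15.4 points in KO at 30 cycles (3.08%) and higher by 21.5 points in KO at 12 cycles (16.9%).

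Lamin A/C and lamin B1 met in part of Tenm2 with both lamin A/C antibodies, and in part of Tenm4 with N18 alone. In Tenm2 at 30 cycles N18 in WT shared 594 kb with lamin B1 and held 143 kb alone, while 3A6 in WT and lamin B1 held the same 1057 kb. At 12 cycles each lamin A/C antibody held 348 kb alone at the 3′ end, shared 242 kb and left 639 kb at the 5′ end to lamin B1. In Tenm4 at 30 cycles N18 in WT held the whole lamin B1 stretch of 289 kb and 55 kb more, whereas 3A6 in WT shared 0 kb with it. At 12 cycles lamin B1 held 0 kb of Tenm4 against 627 kb for N18 and 693 kb for 3A6.

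Domains reached past at least 1 end of Tenm2 in 10 libraries and lay wholly inside it in N18 WT at 30 cycles and 3A6 KO at 12 cycles. The 500 kb upstream of Tenm2 was 100% inside domains in LAP2alpha, 3A6 KO, 3A6 WT and lamin B1 at 30 cycles and in lamin B1 at 12 cycles, and at 0% in the other 7 libraries. The 500 kb downstream was 100% inside domains in LAP2alpha, N18 WT and 3A6 WT at 12 cycles, against 14.0% in N18 KO and 0% in 3A6 KO. In WT cells at 12 cycles Tenm2 thus lay between a side held by lamin B1 and a side held by LAP2alpha and lamin A/C. Upstream the next protein-coding gene, Mat2b, a regulatory subunit of methionine adenosyltransferase, was 3443 kb away, and downstream Wwc1, which encodes the scaffold protein KIBRA, was 26.1 kb away. At 12 cycles Wwc1 was 31.0% inside domains in N18 KO and 0% in 3A6 KO, against 100% in N18 WT and 3A6 WT, and it was at 100% in LAP2alpha. At 30 cycles the order was the opposite, with 92.9% in N18 KO and 31.0% in 3A6 KO, against 0% in N18 WT and 3A6 WT. It was at 0% in LAP2alpha at 30 cycles and with lamin B1 at both sonications. The lamin B1 domain over Tenm2 spanned 7172 kb at 30 cycles and 3575 kb at 12 cycles.

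Around Tenm4 the domains were close to the size of the gene. They spanned 924 kb (LAP2alpha, 30 cycles), 770 kb (LAP2alpha, 12 cycles), 561 kb (N18 WT, 30 cycles), 693 kb (N18 WT, 12 cycles) and 737 kb (3A6 WT, 12 cycles), whereas the lamin B1 domain that reached its 5′ part at 30 cycles spanned 3267 kb. The downstream neighbour Nars2, a mitochondrial asparaginyl-tRNA synthetase gene 40.4 kb away, was 42.4% inside the LAP2alpha domain at 30 cycles and 0% at 12 cycles, and 22.9% inside the N18 WT and 3.52% inside the 3A6 WT domains at 12 cycles. The microRNA gene Mir708 lies inside Tenm4. Next to Tenm3, Dctd, the deoxycytidylate deaminase gene 74.4 kb downstream, was 100% inside the N18 KO domain at 12 cycles and at 0% in the other 11 libraries.

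Genes of teneurin partners and of the remaining teneurin were followed in the same way. The list of 11 was Tenm1, the latrophilin genes Adgrl1 to Adgrl3, the latrophilin ligands Flrt1 to Flrt3 and the receptors Unc5a to Unc5d, and its median share was 0% in all 12 libraries, as was that of all genes. At least 50% of the gene was inside domains for 0 to 4 of the 11 in a library. The share of all genes past that limit was 5.89% to 35.9% in a library, and nothing about the partners is read from these counts or from those by gene below. Tenm1, the X-linked teneurin of 901 kb, was at 72.6% in 3A6 KO and 100% in 3A6 WT at 30 cycles, at 100% with lamin B1 at 30 cycles and 15.2% at 12 cycles, and at 0% in the other 8 libraries. Unc5d, a netrin receptor gene of 573 kb, was at least 50% inside domains in 7 libraries, Adgrl1, Unc5a and Unc5b in 4 each, and Adgrl3, Flrt1 and Flrt2 in 1 each. Adgrl1, 41.8 kb long, was 100% inside domains in N18 KO at 30 cycles and, at 12 cycles, in LAP2alpha, N18 KO and N18 WT. Adgrl2, Flrt3 and Unc5c were at 0% in domains in every library. In domains Tenm1 was thus held by 3A6 and lamin B1 alone. The X chromosome as a whole was inside domains over 0% (LAP2alpha, 30 cycles) to 7.27% (N18 KO, 12 cycles) with LAP2alpha and N18. With lamin B1 it was at 71.8% at 30 cycles and 32.1% at 12 cycles. With 3A6 it was at 22.0% in KO and 45.0% in WT at 30 cycles, and at 17.9% in KO and 0.535% in WT at 12 cycles. Nothing particular to Tenm1 is therefore read from its libraries.

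Genes of at least 100 kb elsewhere in the genome were ranked by their mean absolute difference from each teneurin in EDD share over the 12 libraries. Those nearest to Tenm2 were Park2, the parkin gene of 995 kb, at 20.2 points, Egfem1 at 27.1 points and Unc5d at 27.8 points, among 2388 genes. The nearest to Tenm4 were Aox3l1, Glt25d2 and March4 at 9.19 points, 3 of 6 genes tied at that distance, each at 100% in both LAP2alpha libraries and in N18 WT and 3A6 WT at 12 cycles and at 0% in the other 8. For Tenm3, Ccbe1 was at 0.736 points, with a domain in N18 KO at 12 cycles alone, and 1700008F21Rik was 1 of 908 genes at 0% in all 12 libraries.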

How the data were processed

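ChIP-seq libraries of immortalized murine dermal fibroblasts were analysed from 2 region lists each, for 12 of 24 samples, 1 library per condition. The 4 input and 8 histone mark samples had no file at hand and were not analysed here. According to the submitters' processing notes, reads were trimmed with cutadapt, aligned to mm9 with Bowtie2 2.1.0 and handled with Picard. Per the study's methods, duplicate reads were removed and each ChIP library was thinned to the number of reads in its input. The SICER 1.1 lists deposited by the authors (window 1000 bp, gap 3000 bp, FDR 0.01) hold a read count per island, with no division by length or input. The EDD lists deposited by the authors (bin 11 kb, gap penalty 5, FDR 0.1) hold a score per domain, which depends on its length. Called regions carry no depth-independent level, so a library with more reads after that step may yield more regions. Reads inside islands served as depth, which limits what could be called, and no interval could be given for that.

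Positions are given on mm9, counted from 1, with the GENCODE annotation and genome of the equivalent NCBIM37 assembly, and 0 regions passed a chromosome end. A gene was the widest span of its annotation. Python 3.11.15, numpy 2.4.6, pandas 2.3.3, scipy 1.17.1 and matplotlib 3.10.9 were used to compute the percent of each gene inside regions, domain edges inside it, and differences of over 10 percentage points, without a test. The overlap code was tested on simulated data. Alternatives were a stricter score or read count, domains of at least 500 kb, genes extended by 50 kb, exons alone, other thresholds, joined islands, another start, SICER in place of EDD, and leaving out LAP2alpha WT at 30 cycles, the last chosen after seeing the data.

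Members and gene lists were chosen with earlier results of these data known. Genes named beside the members were 11 partners, the nearest protein-coding neighbour on each side, genes inside a member, and the 3 genes of at least 100 kb, over 5 Mb away, nearest in EDD share, with ties in alphabetical order. One of those for Tenm3 is not reported here. Mir708 was named from 7 genes inside Tenm4.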

Additional observations from a re-analysis of the deposited data

Results flagged for a closer look

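Between KO and WT, 1 result ran in opposite directions at the 2 sonications. The share of Tenm3 inside N18 SICER islands was lower in KO by 48.1 points at 30 cycles (23.7% in KO, 71.8% in WT) and higher by 20.4 points at 12 cycles (49.9% in KO, 29.5% in WT), a change of -48.1 points against 20.4 points. Each value comes from 1 library, and the difference between the sonications was not tested.

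Between 30 and 12 cycles, the share of Tenm3 inside SICER islands moved in opposite directions with different antibodies and genotypes. The change was -47.4 points with LAP2alpha, -26.2 points with N18 in KO and -29.1 points with lamin B1, but 42.3 points with N18 in WT, 42.7 points with 3A6 in WT and 10.7 points with 3A6 in KO. The share of Tenm4 inside EDD domains changed by -38.2 points with N18 in WT and by -93.6 points with 3A6 in WT, but by 39.1 points with lamin B1, and all 3 changes were 0 when only domains above the library median were kept. None of these differences was tested. The 30- and 12-cycle libraries of LAP2alpha, N18 and 3A6 also differed in flow cell, which cannot be told apart from sonication.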

How the results depend on the processing

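KO and WT are set side by side within each antibody and sonication without a test, the labels carry no replicate numbers to pair, and with 1 library per condition no replicate could be left out. Of 99 counts recomputed under an alternative, 74 stayed within 1.5 times the reported count and 25 did not, and the causes below were not tested unless stated. The 74 include counts that were 0 to begin with, as for Tenm4 in islands and Tenm3 in domains. A stricter setting could not move a count of 0. The limits are that each value rests on 1 library, that the lists are thresholded calls against inputs not analysed here, that EDD edges move in steps of 11 kb, and that reads inside islands stood in for depth, the totals of sequenced and mapped reads not being used here. Domains of at least 500 kb, exons alone, joined islands, islands above the median read count, edges over 11 kb from a gene end and leaving out LAP2alpha WT at 30 cycles moved no count past 1.5 times.

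With domains above the library's median score alone, Tenm2 held 7 edges in place of 13 and Tenm4 1 in place of 5, Tenm4 was at least 50% inside in 2 libraries in place of 4 and its start in 2 in place of 4. The pairs then were 2 higher and 1 lower in KO, in place of 1 and 3, and 1 lower at 30 cycles in place of 2. Under that setting 1 difference of over 10 points was reversed, as Tenm2 in N18 WT was -48.0 points at 30 against 12 cycles.

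With SICER islands in place of EDD domains, Tenm2 and Tenm4 were at least 50% inside in 0 libraries and Tenm3 in 4 (in place of 7, 4 and 0), 3 pairs in place of 6 were higher at 30 cycles, and with N18 against 3A6 2 were higher and 1 lower in place of 1 and 2. Reversed among Tenm2 differences of over 10 points were 30 against 12 cycles in 3A6 KO (-2.12 points), 3A6 WT (-3.17 points) and lamin B1 (-2.44 points), and N18 against 3A6 at 30 cycles in KO (10.0 points) and WT (3.58 points).

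At 25% or 75% in place of 50%, Tenm2 passed in 12 and 3 libraries, and at 5% or 25% in place of 10% of the gene in islands, in 3 and 0 libraries. With a limit of 5 points, 2 pairs were higher in KO, and with N18 2 were higher and 4 lower. With a limit of 25 points, 0 were higher in KO and 3 higher at 30 cycles. With genes extended by 50 kb, 2 pairs were higher in KO and 2 higher with N18. The start of the shortest Tenm2 transcript was inside a domain in 10 libraries in place of 5. Of the single percents, 28 of 144 left a binomial range around their reported value. That range counted bins or windows along the gene as independent trials, which neighbours inside the same called region are not. It therefore measures no spread between libraries, and nothing is read from this count.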

Other observations

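The upstream neighbours of the 3 genes were inside lamin B1 domains at 30 cycles, where 16.8% of all genes were at least 50% inside domains. The gene upstream of Tenm3, 4930555F03Rik, 696 kb away, was 100% inside domains in 3A6 WT and lamin B1 at 30 cycles and 77.5% in lamin B1 at 12 cycles, and at 0% in the other 9 libraries, KO included. Gm9966, 210 kb upstream of Tenm4, was 100% inside domains in N18 WT and lamin B1 at 30 cycles and at 0% in the other 10. Mat2b, upstream of Tenm2, was 100% inside the lamin B1 domain at 30 cycles and at 0% in the other 11. Gm9966 lay in the same N18 WT and lamin B1 domains as the 5′ part of Tenm4. Mat2b lay in the same lamin B1 domain as Tenm2, so these 2 neighbours add no separate domain. In SICER islands, the 500 kb upstream of Tenm3 was covered by 8.20% in N18 KO and 71.2% in N18 WT at 30 cycles, and by 15.8% in N18 KO and 21.0% in N18 WT at 12 cycles. The 500 kb downstream was covered by 85.0% in N18 KO and 42.8% in N18 WT at 30 cycles, and by 64.4% in N18 KO and 53.4% in N18 WT at 12 cycles. With N18 the genotypes thus stood in opposite order on the 2 sides of the gene. For 3A6 at 30 cycles KO was higher on both sides, with 35.2% in KO and 30.8% in WT upstream and 43.4% in KO and 0% in WT downstream. For 3A6 at 12 cycles KO was lower on both sides, with 14.0% in KO and 28.8% in WT upstream and 31.8% in KO and 51.8% in WT downstream. The upstream differences of N18 at 12 cycles and of 3A6 at 30 cycles were under 10 points. These differences rest on 1 library each and were not tested.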
